A study of Mus musculus with 60 samples.

Results

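The genes described here are 10 effector and feedback genes of the neuronal activity response (Arc, Npas4, Bdnf, Homer1, Nptx2, Dusp1, Dusp6, Btg2, Ier2 and Ier5), found by symbol among the 20423 genes of the deposited count and log2 tables. All 10 were found, and all 10 passed the filter on low counts in every region. They were chosen with earlier genotype results of the same libraries known, so their differences between genotypes are given as descriptions, and nothing is read from the counts of calls that stand beside them. The region comparison, the sex comparison and the co-variation of the genes between libraries were not used in choosing them.

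Immediate early genes are transcribed within minutes of synaptic activity or of a growth factor signal, from promoters that do not need new protein synthesis to be switched on. Calcium entry and the MAP kinase cascade drive this first wave through CREB and the serum response factor, and several of its products act back on the cascade or on the synapse itself. In brain tissue their RNA levels therefore follow what an animal experienced shortly before it was killed, and they are used as marks of recently active neurons.

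The study measured RNA in cerebellum, striatum and cortex of homozygous PON2-deficient mice and of their wild-type littermates. PON2, or paraoxonase 2, is a membrane-bound lactonase. Both sexes were sampled, and the 60 libraries fall into 12 groups of 5 by region, sex and genotype. All mice were on the C57BL/6J background, 3 to 4 months old, kept on 14 h of light and 10 h of dark, and had been through behavioural tests, wild-type mice included. The libraries are of total RNA from whole pieces of tissue, where fewer cells of a type and less RNA per cell cannot be told apart. The labels number the libraries of a group from 1 to 5 and do not state whether equal numbers come from the same mouse, nor how long after handling tissue was taken.

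Levels are in CPM, the counts of a gene per 1 M counts of the library, on library sizes scaled by TMM within each region. CPM values of different regions are therefore not on exactly 1 scale. The log2 differences between regions come from 1 fit over all 60 libraries. Library totals lay between 26.1 and 28.1 M counts. Pon2 averaged 0.804 ± 0.309 CPM in PON2-deficient cerebellum against 45.3 ± 4.48 CPM in wild-type cerebellum, 3.75 ± 1.32 against 49.7 ± 3.68 CPM in striatum, and 3.35 ± 0.891 against 54.0 ± 2.83 CPM in cortex (SD, n = 10 each). Summed marker genes matched the region labels, with granule neuron markers at 4215 to 4961 CPM in cerebellum, striatal projection neuron markers at 3619 to 7161 CPM in striatum and cortical excitatory neuron markers at 1517 to 1988 CPM in cortex. One library stood apart: the mean precision weight of PON2-deficient male 5 of striatum was 1.96, against 14.1 to 61.5 in the other striatum libraries. In cerebellum the lowest mean weight was that of wild-type male 4, at 15.4, against 30.8 to 65.6 in the others. P-values measure only the spread between these libraries.

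Promoter sequences are shown for members that differ in one element, the cAMP response element (CRE), the site through which CREB acts. RefSeq (GRCm38.p6) gave 14 promoter windows for 7 of the members, Npas4, Bdnf, Homer1, Dusp1, Dusp6, Btg2 and Ier5, and no window was used for Arc, Nptx2 and Ier2. The 250 bases before each annotated start were searched on both strands for the full element TGACGTCA, for TGACG (which the full element holds on both strands, so the matches overlap), and for the CArG box of the serum response factor. The 5 windows below run 5′ to 3′, with capitals marking the matches.

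Npas4 (chr19:4989972-4990221, minus strand): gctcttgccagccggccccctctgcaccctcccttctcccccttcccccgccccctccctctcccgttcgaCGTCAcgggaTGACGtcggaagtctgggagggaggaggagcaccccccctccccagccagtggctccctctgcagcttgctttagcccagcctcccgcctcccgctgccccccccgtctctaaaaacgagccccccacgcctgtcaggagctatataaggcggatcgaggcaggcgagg
Homer1 (chr13:93303507-93303756, plus strand): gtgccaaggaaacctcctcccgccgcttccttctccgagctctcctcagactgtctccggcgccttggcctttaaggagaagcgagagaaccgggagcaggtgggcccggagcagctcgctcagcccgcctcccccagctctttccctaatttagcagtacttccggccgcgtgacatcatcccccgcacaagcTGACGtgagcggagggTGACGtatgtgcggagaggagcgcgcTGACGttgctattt
Dusp1 (chr17:26508473-26508722, minus strand): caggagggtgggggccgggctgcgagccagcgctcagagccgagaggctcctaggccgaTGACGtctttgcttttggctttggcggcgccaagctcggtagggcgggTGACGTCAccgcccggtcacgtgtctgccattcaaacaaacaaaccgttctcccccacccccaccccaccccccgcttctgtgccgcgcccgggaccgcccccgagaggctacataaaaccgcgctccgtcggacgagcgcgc
Btg2 (chr1:134079156-134079405, minus strand): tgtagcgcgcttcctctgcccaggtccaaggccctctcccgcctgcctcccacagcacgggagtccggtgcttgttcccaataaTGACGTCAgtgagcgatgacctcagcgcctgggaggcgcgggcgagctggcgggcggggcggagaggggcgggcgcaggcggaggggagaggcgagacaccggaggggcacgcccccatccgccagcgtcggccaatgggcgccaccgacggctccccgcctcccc
Ier5 (chr1:155099637-155099886, minus strand): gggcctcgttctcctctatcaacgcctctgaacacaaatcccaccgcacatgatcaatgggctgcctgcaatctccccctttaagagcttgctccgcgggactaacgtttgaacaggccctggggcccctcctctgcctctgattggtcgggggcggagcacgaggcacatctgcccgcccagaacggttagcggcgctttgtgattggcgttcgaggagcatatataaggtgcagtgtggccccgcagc

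The full element stood 143 bases before the start of Dusp1 and 166 bases before that of Btg2, and was found in 1.55% of all 32851 promoter windows of the same length. Homer1 had 3 separate TGACG matches, 56, 40 and 14 bases before its start, and Npas4 had a pair at 179 and 169 bases. With 1 of the Bdnf windows, which held a match 35 bases before its start, 5 of the 7 members had TGACG in a window, against 17.8% of all windows, although a member with several windows has several chances of a match. The Ier5 and Dusp6 windows held neither form, and none of the 7 members had a CArG box in these windows, which 1.47% of all windows had. A match of letters is a description and does not show a site in use.

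Levels differed widely by region. Against cortex, 9 of the 10 genes were lower in striatum in edgeR's quasi-likelihood test, adjusted over all genes (57.0% of all genes tested were called between these regions, 28.2% as lower in striatum and 28.8% as higher), and Homer1 was not called. Between cerebellum and cortex, 9 were called, 8 of them lower in cerebellum and Ier2 higher, with 79.6% of all genes called (39.5% lower, 40.1% higher). Between cerebellum and striatum all 10 were called, 6 lower and 4 higher in cerebellum, with 79.8% of all genes called (40.2% lower, 39.7% higher). The median log2 difference of the 10 genes was -0.73 for striatum against cortex, -2.11 for cerebellum against cortex and -1.51 for cerebellum against striatum, while the medians of all genes were 0.01, 0.00 and 0.00.

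Among the synaptic effectors, Arc, which trims AMPA receptors from active synapses, ranged from 15.3 to 22.7 CPM in the 20 cerebellum libraries (median 17.7), from 32.4 to 179 CPM in striatum (median 126) and from 33.6 to 430.3 CPM in cortex (median 280.2). Cerebellum lay below every library of the other regions, while striatum and cortex overlapped. The log2 difference was -3.79 (SE 0.197, adjusted p = 1.42e-24) for cerebellum against cortex and -1.05 (SE 0.176, adjusted p = 8.76e-07) for striatum against cortex. Nptx2, a secreted pentraxin that clusters AMPA receptors on interneurons, had the widest gap of the 10 between cerebellum and cortex, with 0.753 to 2.42 CPM in cerebellum, 28.2 to 44.9 CPM in striatum and 49.4 to 88.3 CPM in cortex. At its lowest it was near the limit of these libraries, where 1 CPM is about 26 to 28 counts, and its log2 difference between cerebellum and cortex was -5.41 (SE 0.093, adjusted p = 2.74e-47).

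Homer1, a scaffold of group 1 metabotropic glutamate receptors whose short activity-induced form is counted here together with the long forms, was the exception between striatum and cortex. It had 164 to 276 CPM in striatum and 114 to 267 CPM in cortex, a log2 difference of 0.12 (SE 0.0753, adjusted p = 0.181), and 28.6 to 52.0 CPM in cerebellum. Bdnf, a neurotrophin that striatal neurons mainly receive from cortical axons, was lowest in striatum, at 3.57 to 13.05 CPM, against 10.98 to 22.9 CPM in cerebellum and 15.7 to 36.3 CPM in cortex. Striatum was thus lower than cortex by a log2 difference of -1.76 (SE 0.109, adjusted p = 1.42e-20), and its libraries did not reach the lowest cortex library.

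The regulators split by region. Npas4, a transcription factor of active neurons that responds to calcium, had 1.001 to 7.43 CPM in cerebellum, 7.28 to 32.7 CPM in striatum and 7.96 to 48.7 CPM in cortex. Since each region was scaled on its own, the highest cerebellum values and the lowest of the other regions cannot be ordered. The log2 difference of cerebellum was -2.46 (SE 0.145) from cortex and -2.07 (SE 0.145) from striatum. Dusp6, a phosphatase of ERK, stood at 9.86 to 22.7 CPM in cerebellum, 23.6 to 59.7 CPM in striatum and 35.2 to 92.1 CPM in cortex, with log2 differences from cortex of -1.95 (SE 0.0845, adjusted p = 3.23e-28) in cerebellum and -0.58 (SE 0.0807, adjusted p = 1.08e-08) in striatum. Dusp1, a phosphatase of p38, JNK and ERK, did not follow it: it had 14.1 to 65.9 CPM in cerebellum and 17.9 to 72.1 CPM in cortex, a log2 difference of -0.04 (SE 0.139, adjusted p = 0.819), and was lowest in striatum at 16.2 to 40.6 CPM. Its annotated span overlaps Ergic1 on the other strand, which is also in the count table, and whether the counting used strand is not stated.

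Btg2, an antiproliferative cofactor of RNA deadenylation, and Ier2, a nuclear protein of the early response, were also lowest in striatum. Ier2 had 8.73 to 19.0 CPM in cerebellum, 1.90 to 6.17 CPM in striatum and 4.503 to 16.4 CPM in cortex, the only one of the 10 that was higher in cerebellum than in cortex (log2 difference 0.36, SE 0.116, adjusted p = 0.00444). Btg2 had 12.8 to 26.2 CPM in cerebellum, 5.69 to 20.8 CPM in striatum and 9.82 to 58.6 CPM in cortex. Ier5, an early response protein that binds protein phosphatase 2A and heat shock factor 1 in human cells, followed Arc and Dusp6 in order, at 16.1 to 25.6 CPM in cerebellum, 45.1 to 96.7 CPM in striatum and 58.4 to 121 CPM in cortex. It did not overlap between cerebellum and either other region, with log2 differences of -2.27 (SE 0.0697, adjusted p = 2.94e-35) from cortex and -1.65 (SE 0.0688, adjusted p = 4.93e-29) from striatum.

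**Figure D1:**
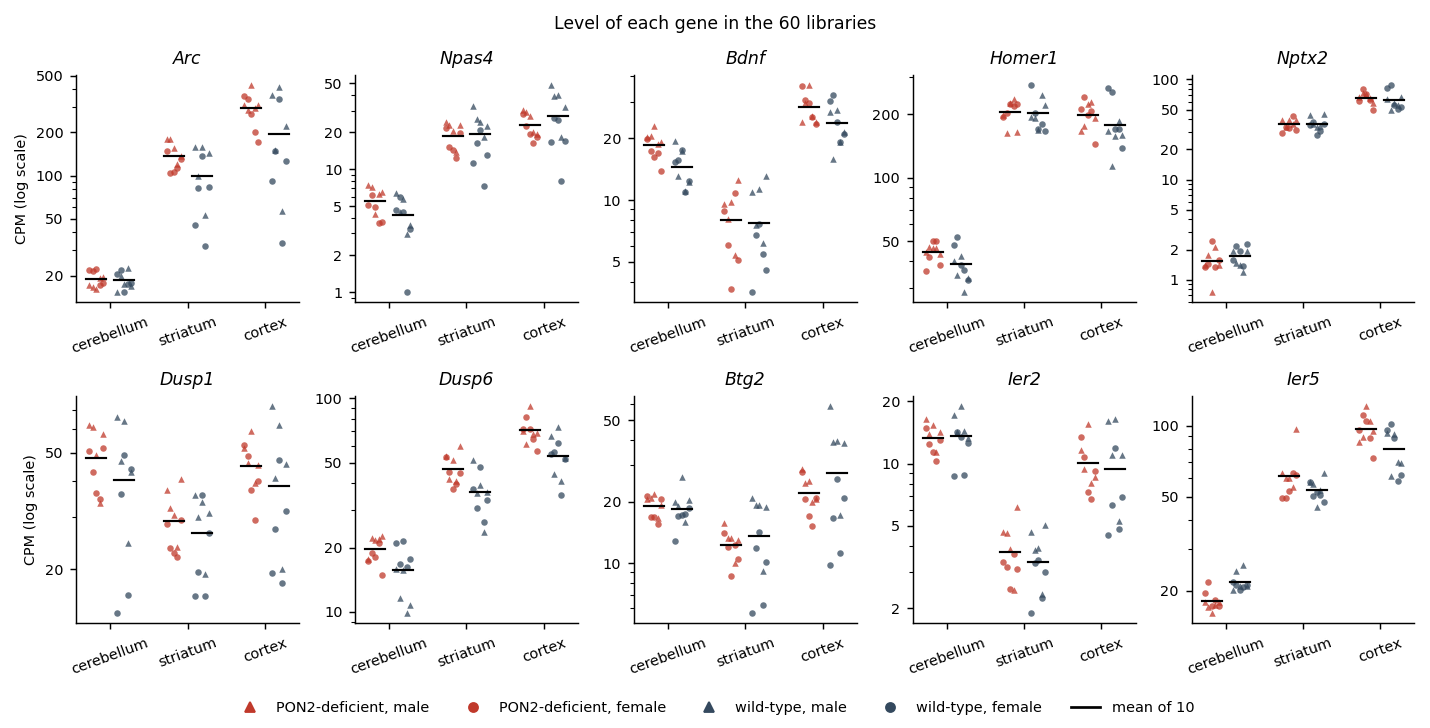
Level of each of the 10 genes in CPM (log axis) by region, PON2-deficient libraries left (red) and wild-type libraries right (dark), with triangles for males, circles for females and a line at the mean of 10. Arc and Ier5 in cerebellum lie below 26 CPM in every library, and the wild-type points of Arc in cortex run from 33.6 to 415 CPM.

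The spread between libraries of a group was wide for some members and narrow for others. With group means removed, the SD of Arc on the log2 scale was 0.88 in cortex, above 99.2% of the genes of at least 1 CPM there, 0.56 in striatum and 0.18 in cerebellum, and its highest cortex library had 12.8 times the level of its lowest. Dusp1, Npas4, Btg2 and Ier2 had SDs of 0.48 to 0.51 in cortex, where the median gene had 0.14. Ier5 had SDs of 0.11 in cerebellum, 0.21 in striatum and 0.28 in cortex, above 31.7%, 49.2% and 83.9% of genes, so that it varied about as much as the middle gene of striatum and less than that of cerebellum. In cerebellum the wide genes were Npas4 (SD 0.58) and Dusp1 (0.56), and for Npas4 the SD was 0.37 without wild-type female 4, whose level was 1.001 CPM against 3.24 to 5.99 CPM in the other 4.

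In cortex and striatum most of the other 9 genes followed Arc between libraries, and in cerebellum 1 did. The SD of Arc in cerebellum was below that in the other regions, though above that of 64.8% of genes of at least 1 CPM there. Pearson's r with Arc was computed over the 20 libraries of each region with group means removed, 27 relations in all, with 2-sided permutation p-values adjusted over the 27. In cortex 6 of 9 genes passed, all positive: Dusp1 (r = 0.91, rho = 0.89), Dusp6 (r = 0.88, rho = 0.90), Npas4 (r = 0.85, rho = 0.71), Ier2 (r = 0.85, rho = 0.80), Btg2 (r = 0.79, rho = 0.71) and Ier5 (r = 0.62, rho = 0.66). Their adjusted permutation p-values ran up to 0.0339, and the permutation p-values of rho up to 0.00733, both reached by Ier5. At an unadjusted permutation p under 0.05, 7 of 9 genes had a positive r, as had 6.80% of all genes. Among these was Bdnf (r = 0.56, rho = 0.67), which did not pass in cortex, with an adjusted permutation p of 0.0618.

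In striatum 6 of 9 genes passed, with Bdnf in place of Ier5: Btg2 (r = 0.89, rho = 0.79), Dusp1 (r = 0.86, rho = 0.74), Npas4 (r = 0.82, rho = 0.74), Dusp6 (r = 0.71, rho = 0.53), Ier2 (r = 0.70, rho = 0.71) and Bdnf (r = 0.53, rho = 0.57), with 4.98% of all genes positive at an unadjusted p under 0.05. Their adjusted permutation p-values ran up to 0.0291 (Bdnf), and those of rho, unadjusted, up to 0.0339 (Dusp6). Ier5 had r = -0.07 and rho = -0.03 there. In cerebellum Ier5 was the one gene that passed (r = 0.68, rho = 0.64, adjusted permutation p = 0.0088, permutation p of rho = 0.00628; 3.86% of all genes were positive at an unadjusted p under 0.05), and Dusp1, Btg2 and Dusp6 had r of -0.45, -0.42 and -0.36. Homer1 and Nptx2 passed in no region.

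These relations rested in part on a few libraries, and the genes that passed differed between the genotypes. Without the 2 libraries farthest from the median of Arc, r was 0.87 for Dusp1, 0.82 for Ier2, 0.80 for Dusp6, 0.63 for Btg2, 0.58 for Npas4 and 0.57 for Ier5 in cortex, and 0.62 for Ier5 in cerebellum. In striatum it was 0.81 for Btg2, 0.80 for Dusp1, 0.72 for Npas4, 0.58 for Ier2, 0.57 for Bdnf and 0.42 for Dusp6. Of these, 3, 3 and 0 genes passed in cortex, striatum and cerebellum, and at an unadjusted permutation p under 0.05 there were 5, 5 and 1 with a positive r, against 4.81%, 3.49% and 2.62% of all genes. Adjusted over all genes instead, Dusp1, Dusp6 and Ier2 passed in cortex (0.274% of all genes did) and none in striatum or cerebellum (0.00% of all genes). Within genotypes (10 libraries each, permutation p-values adjusted over 54 relations), 3 of 9 genes passed in PON2-deficient cortex (Dusp6, r = 0.87; Bdnf, r = 0.84; Ier5, r = 0.80) and 5 in wild-type cortex (Dusp1, r = 0.94; Ier2, r = 0.92; Dusp6, r = 0.92; Npas4, r = 0.90; Btg2, r = 0.85). In striatum 1 gene passed in PON2-deficient libraries (Npas4, r = 0.82) and 5 in wild-type libraries, and in cerebellum none passed in PON2-deficient libraries and Ier5 passed in wild-type libraries (r = 0.84). At an unadjusted permutation p under 0.05, a positive r was found for 5 of 9 genes in PON2-deficient and 5 in wild-type cortex, against 4.38% and 6.70% of all genes. Ier2 lay at this threshold in PON2-deficient cortex. In the separate shuffles of the adjusted counts its unadjusted permutation p was 0.0495, which makes that count 6. The counts were 2 and 6 in striatum (1.03% and 4.83% of all genes) and 0 and 1 in cerebellum (2.55% and 2.98%). The difference between the genotypes in r was not tested.

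**Figure D2:**
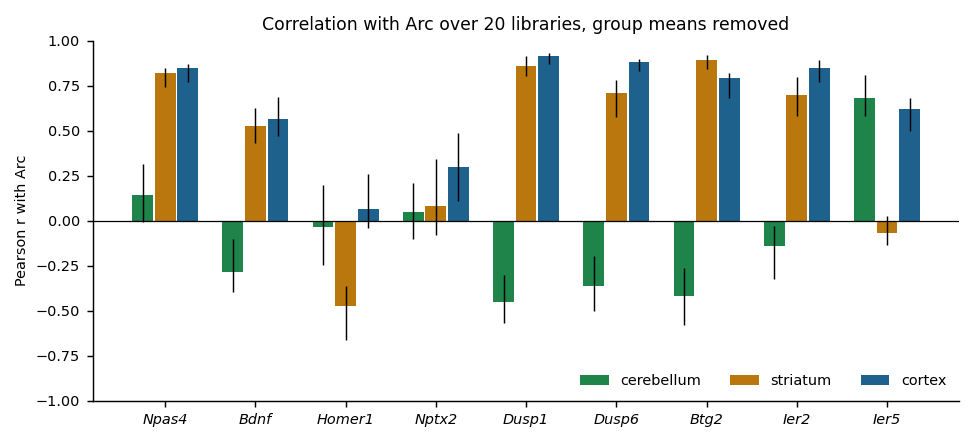
Pearson's r of 9 genes with Arc over the 20 libraries of each region, group means removed; bars start at 0 and black lines span the values when each library was left out in turn. In cortex and striatum most bars are high, up to 0.91, while in cerebellum only Ier5 exceeds 0.2.

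Libraries that were low for 1 gene were often low for the others. In the PON2-deficient groups the library with the lowest mean deviation of the 10 genes had a different number in each region, and its mean log2 deviation from its group lay between -0.11 and -0.35. In the wild-type groups it was library 4 of both sexes in all regions, with mean deviations of -0.28 in cerebellum, -0.48 in striatum and -0.64 in cortex for male 4, and of -0.39, -0.38 and -0.63 for female 4. In cortex Arc shows the size of this, at 171 CPM in the lowest PON2-deficient library, against 56.3 CPM in wild-type male 4 and 33.6 CPM in wild-type female 4. The low mean did not hold for every gene. In cerebellum wild-type male 4 stood above its group for Arc (0.31 on the log2 scale) and Ier5 (0.20).

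**Figure D3:**
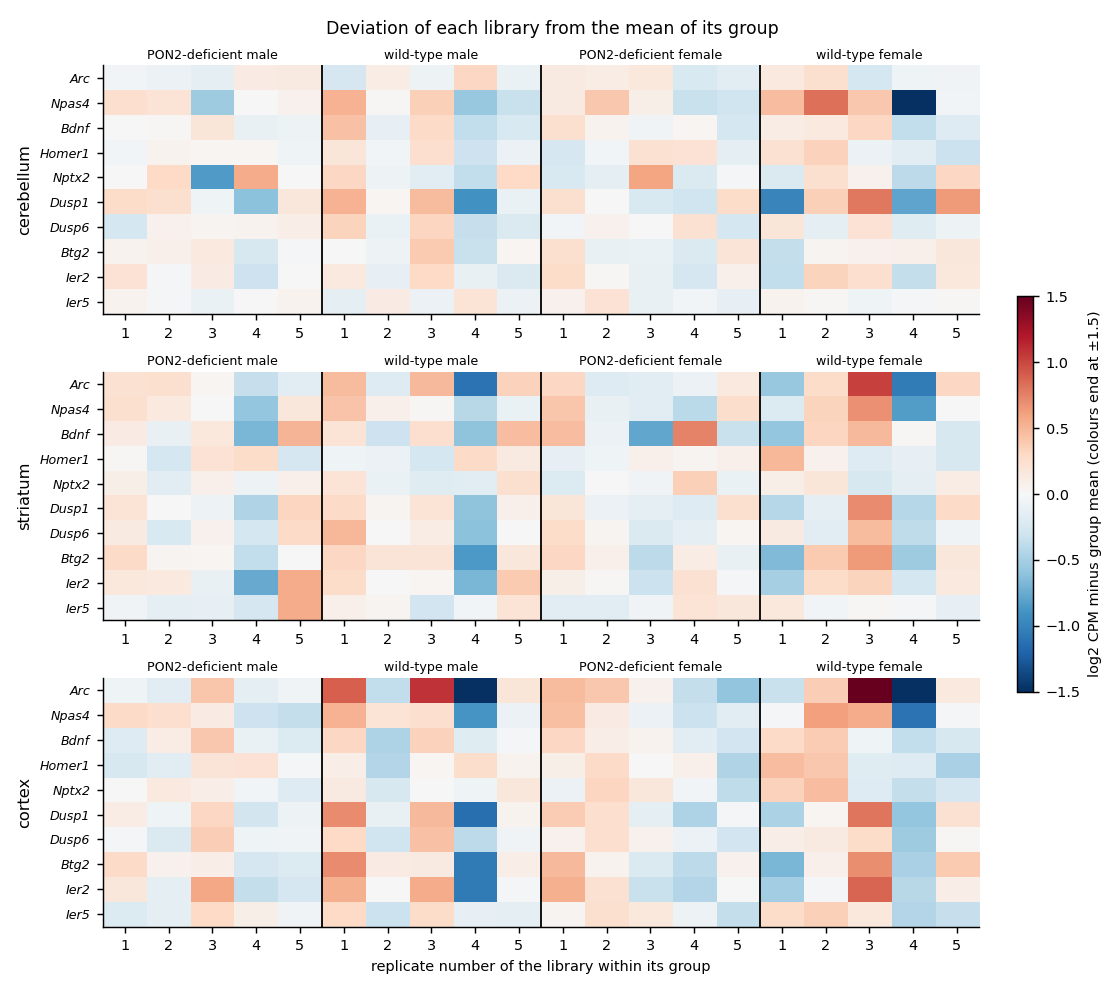
Log2 CPM of each gene (rows) in each library (columns) minus the mean of its group of 5, from blue (lower) to red (higher), by region and group. The columns numbered 4 of the wild-type groups are mostly blue in all regions, with mean deviations of -0.28 to -0.64.

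Spread also differed by genotype, in a comparison that was added after the values had been seen and is a description. Within sex, the SD of log2 CPM was smaller in PON2-deficient than in wild-type libraries for 9 of the 10 genes in cerebellum, 8 in striatum and 10 in cortex, while the same held for 56.6%, 25.7% and 55.2% of all genes of at least 1 CPM. The median ratio of the SDs, PON2-deficient over wild-type, was 0.67, 0.72 and 0.64 for the 10 genes and 0.94, 1.34 and 0.95 for all genes. For Arc the SD was 0.23 in PON2-deficient and 0.75 in wild-type striatum, and 0.37 in PON2-deficient and 1.19 in wild-type cortex. Ier5 differed from this in striatum, with 0.26 in PON2-deficient and 0.15 in wild-type libraries, where 1 of the PON2-deficient libraries was the one that stood apart. Without that library the count in striatum was 9 genes, against 58.4% of all genes, with a median ratio of 0.71 for the 10 genes and 0.92 for all genes. Since several of the genes move together, they do not count as 10 separate instances. Without the wild-type libraries numbered 4, the counts in cerebellum, striatum and cortex were 8, 6 and 10 genes, against 44.9%, 26.5% and 47.5% of all genes. The median ratios were then 0.76, 0.83 and 0.71 for the 10 genes and 1.06, 1.36 and 1.02 for all genes. The SD of Npas4 in cortex was then 0.30 in both genotypes.

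The genotype change was larger than the SD within groups for 3 of the 10 genes in cerebellum (Bdnf, Dusp6 and Ier5), 1 in striatum (Dusp6) and 2 in cortex (Dusp6 and Ier5). The share of all genes with such a change was not computed. By edgeR's quasi-likelihood test none of the 10 was called in cerebellum, striatum or cortex, where 0.0321%, 0.0105% and 0.0316% of all genes were. At an unadjusted p under 0.05 there were 4, 2 and 3 of the 10, against 11.1%, 4.94% and 11.4% of all genes, and DESeq2 called 3 (Dusp6, Bdnf and Ier5), 0 and 1 (Dusp6), against 1.30%, 0.0369% and 1.24% of all genes. The members were chosen from this contrast, so nothing is read from these counts. The median log2 change, PON2-deficient minus wild-type, was 0.12 in cerebellum, 0.12 in striatum and 0.22 in cortex, and medians of all genes were 0.00, 0.01 and 0.00. Of the 10 genes, 7, 8 and 8 had changes above 0, as had 50.4%, 53.9% and 49.8% of all genes.

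**Figure D4:**
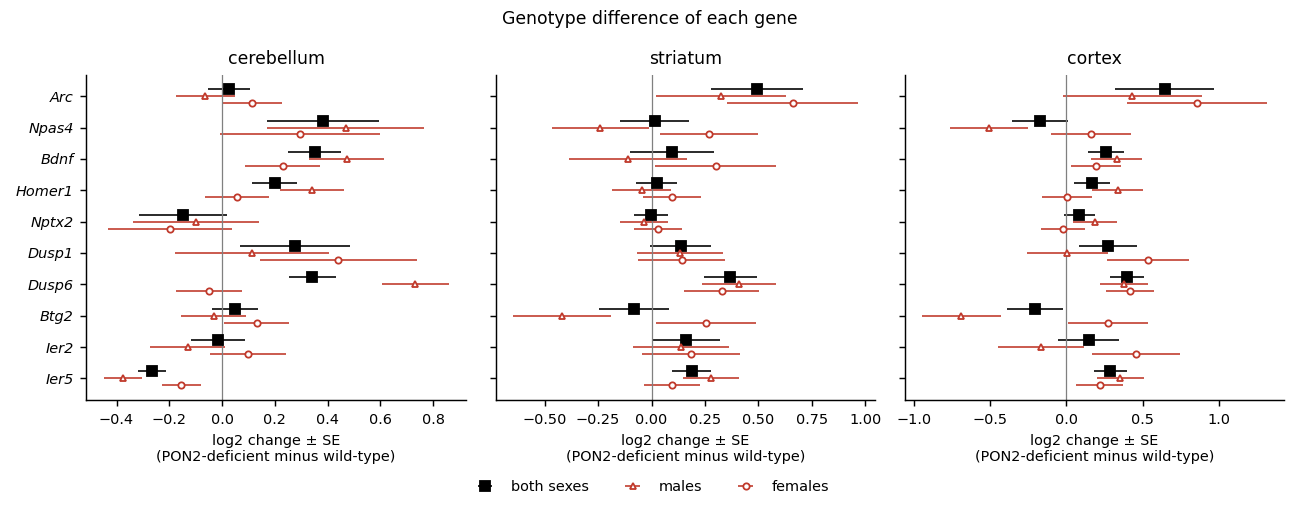
Log2 change of each gene, PON2-deficient minus wild-type, with its standard error in the edgeR fit, for both sexes (squares), males (triangles) and females (circles); the axes of the panels differ. Ier5 lies left of 0 in cerebellum (-0.27 over both sexes) and right of 0 in striatum and cortex (0.19 and 0.29), while Dusp6 is positive in all regions over both sexes (0.34 to 0.40).

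For 5 of the 10 genes the change over both sexes had both signs among the regions. Ier5 was the one of them whose change exceeded the SD within groups on both sides of 0, in cortex narrowly (0.29 against an SD of 0.28). This is a description, since the members were chosen from this contrast. In cerebellum the 5 PON2-deficient males had 17.8, 17.0, 16.1, 17.3 and 17.9 CPM, against 20.1, 24.2, 20.9, 25.6 and 20.9 CPM in the 5 wild-type males. The PON2-deficient females had 19.6, 21.7, 17.3, 18.2 and 17.3 CPM, against 21.7, 21.2, 20.04, 20.7 and 21.2 CPM in wild-type females. All 5 PON2-deficient males lay below every wild-type male, as held for 1.03% of all genes. Of the 10 PON2-deficient libraries, 9 lay below all 10 wild-type libraries, female 2 being the exception, and the share of all genes with such a count was not computed. The log2 change was -0.27 (SE 0.0516) over both sexes, -0.38 (SE 0.073) in males and -0.15 (SE 0.0729) in females.

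In striatum Ier5 had 63.3, 59.9, 60.1, 54.8 and 96.7 CPM in PON2-deficient males against 58.0, 56.3, 45.1, 53.3 and 63.3 CPM in wild-type males, and 49.2, 49.2, 52.9, 63.1 and 62.0 CPM in PON2-deficient females against 57.8, 50.3, 52.4, 50.7 and 47.6 CPM in wild-type females. The groups overlapped, and the highest value belongs to the library that stood apart: the log2 change was 0.19 (SE 0.0917) with it and 0.10 without it. In cortex it had 85.0, 89.4, 121, 104 and 94.7 CPM in PON2-deficient males against 93.5, 61.2, 92.5, 70.3 and 69.5 CPM in wild-type males, and 96.0, 110.5, 104, 89.1 and 73.1 CPM in PON2-deficient females against 95.5, 101, 88.5, 58.4 and 62.1 CPM in wild-type females. Of the 10 PON2-deficient cortex libraries, 4 lay above every wild-type library, and the log2 change was 0.29 (SE 0.109). The difference between the changes in cerebellum and in cortex was -0.55 (SE 0.134) for Ier5, and by edgeR it was called for none of the 10 genes (0.0147% of all genes). At an unadjusted p under 0.05 there was 1 of the 10, against 4.15% of all genes. DESeq2 called 1, Ier5, against 0.0834% of all genes.

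**Figure D5:**
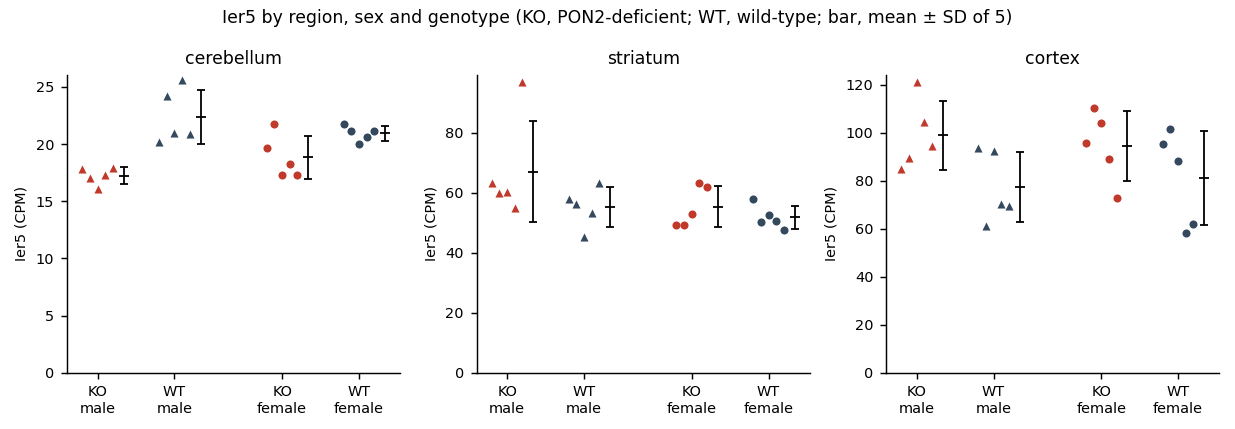
Ier5 in CPM in each library by region, sex and genotype, PON2-deficient left of wild-type, with the mean ± SD of 5 beside the points; the axes start at 0 and differ between regions. The male groups of cerebellum do not overlap (16.1 to 17.9 CPM against 20.1 to 25.6 CPM), and 1 PON2-deficient male of striatum stands at 96.7 CPM.

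In cerebellum the change of Dusp6 was larger in males than in females, though the difference was not called. PON2-deficient males had 17.6, 22.1, 21.6, 21.9 and 22.7 CPM, against 15.8, 11.7, 15.7, 9.86 and 10.8 CPM in wild-type males, which do not overlap. PON2-deficient females had 17.3, 18.8, 17.985, 21.1 and 14.9 CPM, against 21.004, 16.8, 21.4, 16.3 and 17.6 CPM in wild-type females, which do. The log2 change was 0.73 (SE 0.127) in males and -0.05 (SE 0.126) in females. The difference between these changes was 0.78 (SE 0.178, adjusted p = 0.967 in edgeR's quasi-likelihood test). The difference between the sexes in the genotype effect was called for none of the 10 genes in any region by edgeR (0.00% of all genes) or DESeq2. DESeq2 called 0.00534%, 0.0422% and 0.269% of all genes in cerebellum, striatum and cortex. At an unadjusted p under 0.05 in edgeR there were 2 of the 10 in cerebellum, 0 in striatum and 1 in cortex (4.73%, 4.31% and 9.56% of all genes). Ier5, described above, and Homer1 also had male groups in cerebellum that did not overlap. For Homer1 the values were 44.2, 47.0, 46.2, 46.4 and 43.4 CPM in PON2-deficient males against 40.3, 34.6, 42.4, 28.6 and 33.4 CPM in wild-type males. Such gaps with PON2-deficient males above were found for 1.15% of all genes in cerebellum, and with PON2-deficient males below for 1.03%. The lowest values of Dusp6 and Homer1 in males, 9.86 and 28.6 CPM, were those of wild-type male 4, the cerebellum library of lowest precision weight. The male groups stay apart without that library.

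Dusp6 had positive changes in the other regions in both sexes. In striatum its lowest, median and highest levels were 37.7, 45.0 and 59.7 CPM in PON2-deficient libraries against 23.6, 36.1 and 51.3 CPM in wild-type libraries, and in cortex 56.4, 69.3 and 92.1 CPM against 35.2, 53.6 and 73.5 CPM. The ranges overlapped, with log2 changes of 0.37 (SE 0.123) and 0.40 (SE 0.111). Bdnf had 13.9, 19.0 and 22.9 CPM in PON2-deficient cerebellum against 10.98, 14.2 and 19.3 CPM in wild-type cerebellum, a log2 change of 0.35 (SE 0.101), with changes of 0.09 (SE 0.197) in striatum and 0.26 (SE 0.118) in cortex.

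For Arc the genotypes differed most at the lower end of the wild-type range. In cortex the PON2-deficient males had 309, 289.5, 430.3, 295 and 311 CPM, against 365, 152, 415, 56.3 and 222 CPM in wild-type males. The PON2-deficient females had 359.6, 343, 271, 202 and 171 CPM, against 91.1, 147, 344, 33.6 and 126 CPM in wild-type females. Among males 3 wild-type libraries lay below the PON2-deficient range and 2 within it, and among females 4 lay below it and 1 within it. The log2 change was 0.65 (SE 0.324) in cortex and 0.49 (SE 0.215) in striatum, and 0.03 (SE 0.0783) in cerebellum.

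Btg2 and Npas4 had changes of opposite sign in the sexes in striatum and cortex. In cortex Btg2 had 28.9, 24.8, 25.2, 19.9 and 20.5 CPM in PON2-deficient males against 58.6, 39.0, 39.3, 17.1 and 38.5 CPM in wild-type males, and 27.95, 20.7, 17.1, 15.2 and 20.9 CPM in PON2-deficient females against 9.82, 16.6, 25.7, 11.2 and 20.7 CPM in wild-type females. The log2 change was -0.69 (SE 0.258) in males and 0.27 (SE 0.265) in females, and for Npas4 it was -0.51 (SE 0.255) in males and 0.16 (SE 0.261) in females. The female value of Npas4 was -0.03 without wild-type female 4, so its sign in cortex rests on that library. Dusp1 had positive changes over both sexes in each region, of 0.28 (SE 0.208) in cerebellum, 0.14 (SE 0.144) in striatum and 0.27 (SE 0.19) in cortex. Over both sexes, changes of Homer1, Nptx2 and Ier2 lay between -0.15 and 0.20 in all regions. Within a sex some were larger. Ier2 in cortex had -0.17 (SE 0.282) in males and 0.46 (SE 0.29) in females. Homer1 in males had 0.34 in cortex (SE 0.167) and 0.34 in cerebellum (SE 0.122).

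Males had higher levels than females for several of the genes, without passing the adjustment over all genes. None of the 10 was called by edgeR or DESeq2 in cerebellum, striatum or cortex (0.118%, 0.105% and 0.0896% of all genes by edgeR). DESeq2 called 44 of 18710 genes in cerebellum, 60 of 18962 in striatum and 80 of 18972 in cortex. At an unadjusted p under 0.05, 3, 7 and 4 of the 10 stood higher in males and none lower, while 3.59%, 4.22% and 5.03% of all genes did. In striatum these were Arc, Npas4, Bdnf, Nptx2, Dusp1, Btg2 and Ier2, with log2 differences, male minus female, from 0.17 (Nptx2, SE 0.0791) to 0.60 (Bdnf, SE 0.198). In cortex they were Btg2 (0.71, SE 0.185, adjusted p = 0.204), Npas4 (0.60, SE 0.183, adjusted p = 0.266), Dusp1 (0.48, SE 0.19, adjusted p = 0.389) and Ier2 (0.48, SE 0.202, adjusted p = 0.411). Ier5 had differences of -0.02 (SE 0.0516) in cerebellum, 0.18 (SE 0.0917) in striatum and 0.00 (SE 0.109) in cortex.

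Other activity-regulated genes were taken as a list of 42, chosen like the members with earlier results known. Between genotypes 27 of the 41 that passed the filter in cerebellum were higher in PON2-deficient libraries. In striatum 34 of 42 were higher and in cortex 38 of 42, while 50.4%, 53.9% and 49.8% of all genes were. The median log2 changes were 0.11, 0.28 and 0.30, and none was called by edgeR. At an unadjusted p under 0.05 there were 11, 22 and 18, against 11.1%, 4.94% and 11.4% of all genes in either direction. Of these, 9, 21 and 18 were higher, against 5.89%, 3.01% and 6.53% of all genes. As for the members, nothing is read from these counts. The smallest p-values in each region belonged to Plk3, Spry4 and Gadd45b in cerebellum, Nr4a3, Dusp5 and Egr1 in striatum, and Spry4, Dusp4 and Plk3 in cortex. Gadd45b was lower in PON2-deficient cerebellum (log2 change -0.28), and the other 8 of these were higher. Spry4, an inhibitor of the same receptor tyrosine kinase signal that Dusp6 damps, had 20.8, 25.9 and 33.1 CPM (lowest, median, highest) in PON2-deficient cerebellum against 6.80, 13.1 and 28.8 CPM in wild-type cerebellum. By region, 30 of the 42 were lower and 7 higher in cerebellum than in cortex, and 25 lower and 8 higher in striatum than in cortex, all called by edgeR, against 39.5% and 40.1%, and 28.2% and 28.8%, of all genes.

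The genes outside the 10 that followed their mean deviation most closely over the 20 libraries of a region were, in cortex, Nr4a1 (r = 0.97), Egr2 (0.96), Fos (0.95), Gadd45b (0.95) and Dusp5 (0.94). In cerebellum they were Fos (0.88), Fndc3b (0.84), Nr4a1 (0.83), Egr4 (0.83) and Dusp5 (0.82), and in striatum Gpc4 (0.87), Trib1 (0.87), Junb (0.85), Dusp5 (0.85) and Apold1 (0.84). The points of each r share their libraries and depth, and the values are descriptions.

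Several marker lists lay wholly or mostly on 1 side by genotype, among them lists for tissue outside the dissected regions. None of their genes was called by edgeR, and their part in the values above was not tested. All 7 choroid plexus markers had lower fitted levels in PON2-deficient cerebellum (median log2 change -0.34; summed level 33.5 to 2784 CPM against 585 to 2307 CPM in wild-type) and in PON2-deficient cortex (median -1.02; 14.4 to 491 CPM against 16.5 to 457 CPM), with 0 and 1 of the 7 at an unadjusted p under 0.05. All 4 ependymal markers had lower fitted levels in PON2-deficient cerebellum and cortex (medians -0.29 and -0.48) and higher ones in PON2-deficient striatum (median 0.47). Of the 4, 1 in cerebellum, 3 in cortex and 2 in striatum had an unadjusted p under 0.05, against 11.1%, 11.4% and 4.94% of all genes. Of 6 thalamus markers, 5 were on the lower side in PON2-deficient striatum (median -0.35, 2 at an unadjusted p under 0.05; 109 to 186 CPM against 96.4 to 372 CPM), as were all 4 Purkinje neuron markers in PON2-deficient cortex (median -0.32, 1 at an unadjusted p under 0.05; 90.7 to 123 CPM against 92.7 to 149 CPM). All these ranges overlap. The 5 granule neuron markers tested in cortex were also lower in PON2-deficient libraries (median -0.25). All 4 red blood cell markers were lower in PON2-deficient cerebellum and cortex (medians -0.12 and -0.07) and higher in PON2-deficient striatum (median 0.13). All 7 cortical neuron markers were higher in PON2-deficient cortex (median 0.06). In striatum the summed cortical neuron markers ranged from 179 to 797 CPM in PON2-deficient and from 216 to 859 CPM in wild-type libraries, so that the striatum libraries hold different shares of such RNA.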

How the data were processed

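RNA was measured in 60 libraries in 12 groups of 5. The authors deposited expected counts per gene (estimated, not whole), log2 CPM values and a precision weight score per gene and library. The submitters' processing notes name Salmon, edgeR and limma. Versions, build and gene models were not given in the sources used here, nor was strandedness. The deposited log2 values equal limma's voom values with a largest deviation of 5.33e-14. No 2 libraries were duplicates (highest correlation 0.983).

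Symbols and positions came from GENCODE M21 by gene ID, and 20403 of 20423 genes matched (99.9%). Counts were rounded and fitted with edgeR 4.0.16 in R 4.3.3 (filterByExpr, TMM, quasi-likelihood F tests, 2-sided). Each region had 1 fit over 20 libraries with the 4 group means (18710 genes in cerebellum, 18962 in striatum, 18972 in cortex), and regions were compared in 1 fit over 60 libraries (20387 genes). Benjamini-Hochberg adjustment ran over all genes, with a threshold of 0.05. SE is the absolute log2 change over the square root of F. Log2 CPM for co-variation used a prior count of 2, and correlations used 100000 shuffles within groups. Alternatives were RLE scaling, no filter, DESeq2 1.42.0, limma 3.58.1 on the deposited values and weights, a replicate block, a slope on gene length and leaving out libraries. The fits were tested on simulated counts with known changes.

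The 10 genes, the list of 42 other activity genes and the marker lists were chosen with earlier results of these data known. The rule for named genes was all 10 members, Pon2, the 3 of the 42 with the smallest p per region by genotype, and the 5 genes of at least 1 CPM most like the members' mean. The comparison of spread between genotypes and the correlations within genotypes were added after the values were seen.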

Additional observations from a re-analysis of the deposited data

Results flagged for a closer look

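With 5 libraries in each group, 7 of 120 sets of values (10 genes in 12 groups) had a library far from the other 4, and chance gives about 6, since it flags about 1 in 20. Among the highest of their group, Arc in cortex was 430.3 CPM in PON2-deficient male 3 (next 311 CPM), and the same library had Dusp6 at 92.1 CPM (next 69.9 CPM). Nptx2 in cerebellum was 2.42 CPM in PON2-deficient female 3 (next 1.56 CPM). Ier5 in striatum was 96.7 CPM in PON2-deficient male 5 (next 63.3 CPM), the library with the low precision weight. Among the lowest, Dusp6 in cerebellum was 17.6 CPM in PON2-deficient male 1 (next 21.6 CPM), Btg2 in striatum was 9.19 CPM in wild-type male 4 (next 18.9 CPM), and Btg2 in cerebellum was 12.8 CPM in wild-type female 1 (next 17.0 CPM).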

How the results depend on the processing

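The region counts stayed at 9, 9 and 10 called genes under every alternative and with each library left out, and Dusp1, not called between cerebellum and cortex, ranged from -0.0865 to 0.0281 on the log2 scale and turned positive in 5 of 60 such fits. By genotype in cortex, where none of the 10 was called, DESeq2 called 1 and the slope on gene length 2 (0.464% of all genes), and 2 also in males (0.264%). In cerebellum DESeq2 called 3, the length slope 2 (0.454% of all genes), and leaving out 1 library 0 to 1 (1 without PON2-deficient female 2 or wild-type male 3). In males of cerebellum RLE scaling called 1, no filter 1, DESeq2 2, limma on the deposited values 1 (0.0214%, 0.0196%, 1.08% and 0.0641% of all genes), and leaving out 1 library 0 to 2. The difference of the genotype effect between cerebellum and cortex was called for 1 gene by DESeq2 and for 1 with the length slope (0.0834% and 0.0343% of all genes). By sex in cortex, leaving out 1 library gave 0 to 1 (Btg2, 0.81 without wild-type male 4). Co-varying genes numbered 3 in cortex, 3 in striatum and 0 in cerebellum without the 2 libraries farthest from the median of Arc, and 3, 0 and 0 adjusted over all genes; both settings were not among the alternatives listed at first. Leaving out 1 library gave 5 to 7, 4 to 7 and 1 to 2 (2 in cerebellum without wild-type female 2). Genes with a smaller spread in PON2-deficient libraries numbered 8 to 9 in cerebellum, 6 to 9 in striatum and 10 in cortex with 1 library left out. The same held for 45.5% to 59.2%, 23.5% to 58.4% and 50.4% to 57.9% of all genes.

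With the replicate block, 1 of the 10 genes was called by genotype in cortex, where calls over all genes numbered 30 with the block and 6 without it (0.158% and 0.0316%), and no other count of the 10 moved by over 1.5 times; no block was fitted for males against females. Equal numbers were not taken to pair the libraries, since not every pair had a correlation over 0.1: same-numbered libraries of the genotypes had a correlation over 0.1 in 1 of 10 pairs in cerebellum, 3 of 10 in striatum and 1 of 10 in cortex. Across regions it was over 0.1 in 10 of 20 pairs for cerebellum against cortex, 9 of 20 for cerebellum against striatum and 8 of 20 for striatum against cortex, and whether these are the same mice is not settled by the labels. Depth limits Nptx2 in cerebellum most, at 0.753 to 2.42 CPM.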
